A study of Mus musculus with 3 samples.

Results

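The tumour suppressor p53 (gene Trp53), its inhibitors Mdm2 and Mdm4, and 7 direct p53 targets (Phlda3, Sesn1, Sesn2, Zmat3, Eda2r, Aen and Trp53inp1) were examined in mouse cultures labelled as purified interneurons. The genes were found as probe sets whose only symbol in the platform's probe table is one of the 10 names. Of these, 9 genes were found, each with 1 probe set, among 22180 genes that have a probe set of their own. Trp53 itself had none and its level was not analysed here. A further probe set carries Zmat3 together with another symbol and was left out.

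The samples are 3 biological replicate cultures, which form 1 group. Each was made from the medial ganglionic eminence (MGE), the ventral forebrain region that gives rise to many GABA-releasing cortical interneurons, of wild-type (WT) CD-1 embryos at E13, embryonic day 13. All cultures received FGF2 at 40 ng/ml from plating and, on day 5, cytosine β arabinofuranoside C (AraC) at 1 µM for 24 h, and RNA was made 2 days after the drug had been washed out. AraC is a nucleoside analogue that stalls DNA synthesis and kills dividing cells. Expression was measured on 1-colour Affymetrix arrays, 1 per culture, as log2 signal. All cultures received the drug, so these data give no comparison with or without AraC. How many embryos or litters a culture holds is not given in the sources used here.

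p53 is a transcription factor that most cells make continuously and destroy continuously. Mdm2, a ubiquitin ligase, marks it for destruction, and Mdm4, a relative of Mdm2 with little ligase activity of its own, covers its activation domain. DNA damage kinases such as Atm and Chek2 modify p53 and Mdm2 so that p53 accumulates, binds DNA and switches on genes that halt the cell cycle, repair DNA, adjust metabolism or start cell death. Mdm2 is itself a p53 target, which closes a negative feedback loop. In the developing brain the pathway is best known for the death of neural progenitors and young neurons after DNA damage.

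p53 binds DNA as a tetramer at pairs of a 10-base sequence, the p53 decamer consensus, which reads the same on both strands. The promoter windows of RefSeq genes on GRCm38.p6, from 250 bases before to 50 bases after each start, were searched for it, and matches are descriptions of these letters and not evidence of binding. Of the 10 genes, 8 had a window, 11 windows in all, and Zmat3 and Trp53inp1 had none. An exact decamer was found for 4 of the 8 genes (50%), Mdm2, Sesn1, Aen and Trp53, against 9.55% of 27025 genes in the table, and in 5 of 11 windows against 8.36% of 32851. Among the further pathway genes described below, 16 of 76 (21.1%) had one. The windows of the measured genes with a match are shown because they place the motif relative to the start, with the decamer in capitals. That of Mdm2 is chr10:117710709-117711008 on the minus strand, with the match 186 to 177 bases before the start; a well-known p53-responsive promoter of Mdm2 lies in its first intron, outside this window. That of Sesn1 is chr10:41887189-41887488 on the plus strand, the match lying 173 to 164 bases before the downstream one of its 2 starts. That of Aen is chr7:78895677-78895976 on the plus strand, with the match after the start, and the same match lies in the window of its other start too.
Mdm2: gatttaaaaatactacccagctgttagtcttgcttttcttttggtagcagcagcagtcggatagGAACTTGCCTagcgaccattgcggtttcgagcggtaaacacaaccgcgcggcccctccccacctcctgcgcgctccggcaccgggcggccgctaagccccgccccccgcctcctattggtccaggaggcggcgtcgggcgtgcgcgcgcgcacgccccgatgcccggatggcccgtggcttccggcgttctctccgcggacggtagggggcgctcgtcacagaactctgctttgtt
Sesn1: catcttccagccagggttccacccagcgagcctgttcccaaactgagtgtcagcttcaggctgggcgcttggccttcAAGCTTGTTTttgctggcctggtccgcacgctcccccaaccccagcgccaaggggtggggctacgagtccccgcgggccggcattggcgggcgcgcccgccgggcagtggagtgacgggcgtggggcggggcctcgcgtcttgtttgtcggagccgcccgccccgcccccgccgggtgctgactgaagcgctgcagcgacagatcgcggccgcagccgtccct
Aen: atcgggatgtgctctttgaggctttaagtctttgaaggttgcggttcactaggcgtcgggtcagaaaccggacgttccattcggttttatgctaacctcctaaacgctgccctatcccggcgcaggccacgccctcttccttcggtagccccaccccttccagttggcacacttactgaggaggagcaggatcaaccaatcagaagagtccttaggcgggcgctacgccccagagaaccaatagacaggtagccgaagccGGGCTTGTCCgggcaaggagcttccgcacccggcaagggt
For Trp53 the match with 10 bases on either side, at chr11:69580284-69580293 on the plus strand, is given alone.
Trp53: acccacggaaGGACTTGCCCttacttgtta

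A full element of 20 bases, 2 adjacent decamers with up to 2 mismatches in total outside the fixed C and G of each, was in no window of the 10 genes and in 0.392% of all genes. Among the 76 further genes it was found for 6 (7.89%), and these are shown because they include the best-known targets, Cdkn1a and Ccng1. Capitals mark the 20 bases, with 10 bases on either side.
Cdkn1a, chr17:29090928-29090947, plus strand: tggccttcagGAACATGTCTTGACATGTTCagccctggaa
Ccng1, chr11:40755462-40755481, minus strand: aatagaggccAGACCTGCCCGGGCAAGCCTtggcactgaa
Gtse1, chr15:85859945-85859964, plus strand: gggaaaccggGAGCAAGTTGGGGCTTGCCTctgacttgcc
Rps27l, chr9:66946296-66946315, plus strand: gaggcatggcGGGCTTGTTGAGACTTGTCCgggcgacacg
Ckap2, chr8:22186003-22186022, minus strand: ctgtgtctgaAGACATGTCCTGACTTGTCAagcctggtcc
Trp73, chr4:154097220-154097239, minus strand: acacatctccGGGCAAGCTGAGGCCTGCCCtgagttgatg

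All 9 measured genes gave signal above background, at an adjusted p under 0.05. The background line was 6.26 log2 units, the 95th percentile of the means of 1440 probe sets for chemosensory receptors (olfactory, vomeronasal, bitter taste). Each 3-culture mean was tested against this line with limma, 1-sided, with Benjamini-Hochberg adjustment over 22081 probe sets. Of all 20751 genes tested 63.4% passed, so a pass is common. With the line raised by a margin of 1 log2 unit 8 of the 9 passed, against 47.6% of all genes, and the exception was Aen. The 9 genes were a median of 2.87 log2 units above the line, beside 1.08 for all genes tested, including those not above background. Probe sets bind with different strength, so one gene's level is not set against another's. The cultures also hold other cells than interneurons, and fewer cells of a type and less RNA per cell cannot be told apart on such arrays.

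**Figure D1:**
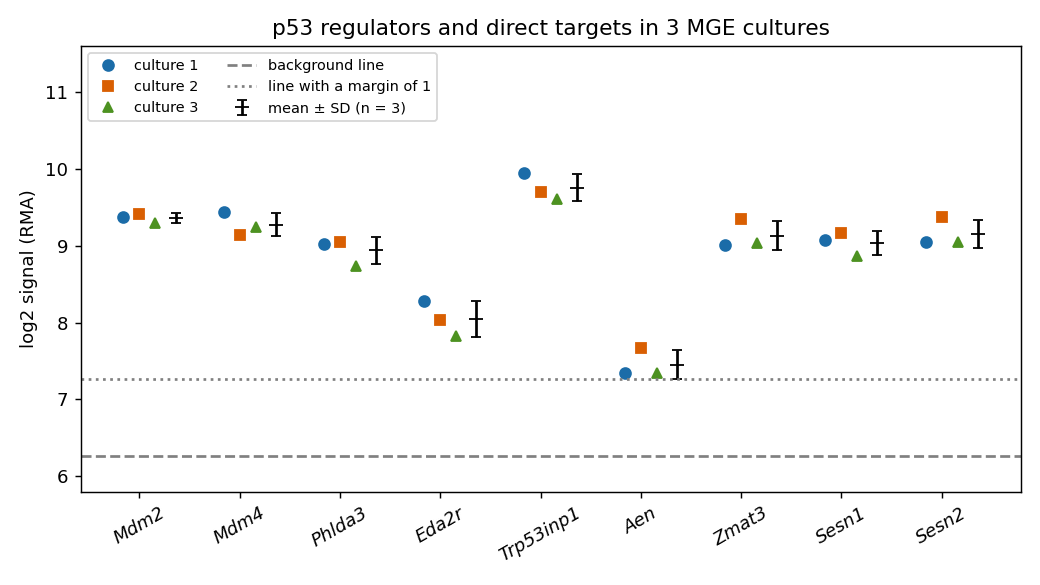
Log2 signal (y axis) of the 9 measured genes in cultures 1, 2 and 3, with the mean ± SD of n = 3 beside them; the dashed line is the background line at 6.26 log2 units and the dotted line lies 1 unit higher. Every culture lies above the dashed line for each gene, and Aen lies closest to it, at 7.34, 7.67 and 7.34.

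Both inhibitors of p53 were well above background. Mdm2 had a log2 signal of 9.38, 9.41 and 9.30 in cultures 1, 2 and 3, a mean of 9.36 ± 0.06 (SD, n = 3; adjusted p = 1.73e-06 in limma's fit). Its cultures lay within 0.12 log2 units of each other, the narrowest range of the 9 genes. Mdm4 had a log2 signal of 9.43, 9.13 and 9.25, a mean of 9.27 ± 0.15 (SD, n = 3; adjusted p = 4.17e-06 in limma's fit). Mdm4 was highest in culture 1 and lowest in culture 2, whereas Mdm2 was highest in culture 2 and lowest in culture 3.

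The targets tied to cell death and survival signalling were above background too. Phlda3, a small protein that competes with the survival kinase Akt for membrane lipids, had a log2 signal of 9.03, 9.05 and 8.74 in cultures 1, 2 and 3 (8.94 ± 0.17, SD, n = 3; limma, adjusted p = 7.51e-06). Eda2r, a receptor of the tumour necrosis factor family that binds the A2 form of ectodysplasin, had 8.28, 8.03 and 7.82 (8.04 ± 0.23, SD, n = 3; limma, adjusted p = 6.37e-05). Eda2r spanned 0.46 log2 units, the widest range of the 9 genes, with culture 1 highest and culture 3 lowest. Trp53inp1, a stress protein that acts in the nucleus with p53 and in autophagy, had 9.95, 9.70 and 9.61 (9.75 ± 0.17, SD, n = 3; limma, adjusted p = 3.60e-06), in the same order of cultures as Eda2r. Aen, an exonuclease that promotes apoptosis, had 7.34, 7.67 and 7.34 (7.45 ± 0.19, SD, n = 3; limma, adjusted p = 0.000168). Aen was highest in culture 2, with cultures 1 and 3 at the same value, and did not pass with the margin of 1 (adjusted p = 0.111).

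The targets that act on RNA and on growth signalling were above background as well. Zmat3, a zinc finger protein that binds RNA, had a log2 signal of 9.01, 9.35 and 9.04 in cultures 1, 2 and 3 (9.13 ± 0.19, SD, n = 3; limma, adjusted p = 7.17e-06). Sesn1 and Sesn2 encode sestrins, which restrain the growth kinase complex mTORC1 under stress. Sesn1 had 9.07, 9.16 and 8.86 (9.03 ± 0.16, SD, n = 3; limma, adjusted p = 5.62e-06). Sesn2, whose product also senses leucine, had 9.05, 9.37 and 9.05 (9.15 ± 0.19, SD, n = 3; limma, adjusted p = 7.01e-06). Zmat3 and Sesn2, like Aen, were highest in culture 2, where each was 0.21 or 0.22 log2 units above its own mean, while cultures 1 and 3 lay close together. Of the 13155 genes above background 52.1% were highest in culture 2 too. The median deviation of all of these in culture 2 was 0.04.

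Each of the 9 genes was below its own 3-culture mean in culture 3. With 1 array per culture such differences have no replicate and carry no test. The deviations in culture 3 ran from -0.22 for Eda2r to -0.02 for Mdm4, with a median of -0.11. Of the 9 genes 6 had their lowest value there alone, beside 31.4% of all genes above background, with Aen equally low in culture 1. After median centring 5 of the 9 genes were lowest there, beside 34.2%, and after quantile normalization 6, beside 26.4%. Of the 13155 genes above background 59.1% were below their own mean in culture 3, and their median deviation was -0.02. The count of 9 of 9 was the same after quantile normalization (51.7% of all genes above background) and after median centring of the arrays (64.7%). In culture 2 the deviation was largest and positive for Aen, Sesn2 and Zmat3, and it was negative for Mdm4 (-0.14), Trp53inp1 (-0.05) and Eda2r (-0.01), which were the 3 genes highest in culture 1. After quantile normalization 5 genes rather than 3 were highest in culture 1, beside 34.5% rather than 32.4% of all genes above background.

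**Figure D2:**
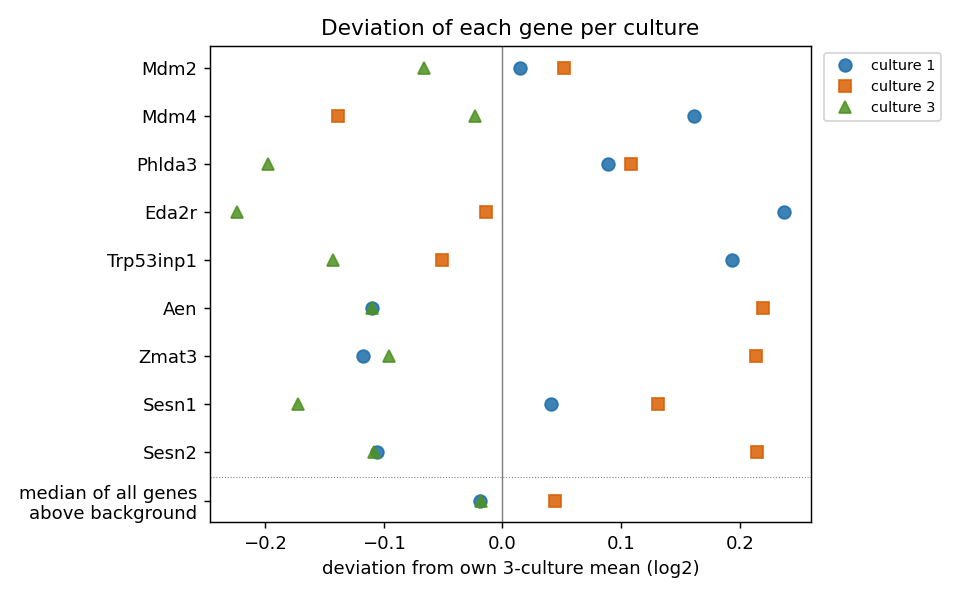
Deviation of each gene from its own 3-culture mean in log2 units (x axis), 1 point per culture, with the median of the 13155 genes above background in the bottom row. All 9 points of culture 3 lie left of 0, while Aen, Zmat3 and Sesn2 lie furthest right in culture 2 and Eda2r, Trp53inp1 and Mdm4 in culture 1.

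The median SD of the 9 genes over the 3 cultures was 0.17 log2 units, beside 0.12 for all genes above background, and 8 of the 9 had an SD above that median. None of the 9 spanned more than 0.5 log2 units, a span that 12.0% of genes above background exceeded. Without culture 2, which correlated least with the others over the whole table (r = 0.983 with culture 1 and 0.986 with culture 3, against 0.991 between cultures 1 and 3), all 9 genes remained above background.

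Markers of several cell types differed between the cultures alongside these genes, and their part in the deviations was not tested. The markers of GABA neurons and the MGE, Gad1, Gad2, Slc32a1, Lhx6 and Nkx2-1, were all above background. Each of these 5 was lowest in culture 1 and highest in culture 2, as were 43.7% and 52.1% of all genes above background, respectively. Their summed log2 signal was 47.6, 50.3 and 49.5 in cultures 1, 2 and 3. The 3 astrocyte markers, Aqp4, Aldh1l1 and Gfap, had the opposite order, with sums of 27.9, 24.0 and 26.7. All 3 markers of dividing cells, all 4 of progenitors and all 4 of the oligodendrocyte lineage were above background and highest in culture 1, with summed log2 signals of 30.3, 29.5 and 29.5, of 41.4, 39.9 and 40.4, and of 43.7, 42.5 and 42.8. The progenitor marker Pax6 and the astrocyte marker Gfap did not pass with the margin of 1 (limma, adjusted p = 0.987 and 0.301). Of 4 cortical glutamatergic markers none was above background with all 3 cultures, Slc17a7 was without culture 1 (limma, adjusted p = 0.0410), and all 4 were highest in culture 2 (sums of 23.7, 26.8 and 24.2). The markers Gfap, Aif1, Pecam1 and Rgs5 were above background with all 3 cultures but each lost the call in at least 1 of the fits with a culture left out. Microglial markers had sums of 25.9, 25.7 and 26.0, with Csf1r and Itgam not above background, endothelial markers of 21.0, 20.7 and 20.3, and pericyte markers of 13.3, 14.1 and 13.8, and none of these 9 genes passed with the margin of 1. In culture 3 every gene was below its own mean in 4 of the 10 marker lists too, those of dividing cells (3 genes), the oligodendrocyte lineage (4), cortical glutamatergic neurons (4) and endothelium (3).

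**Figure D3:**
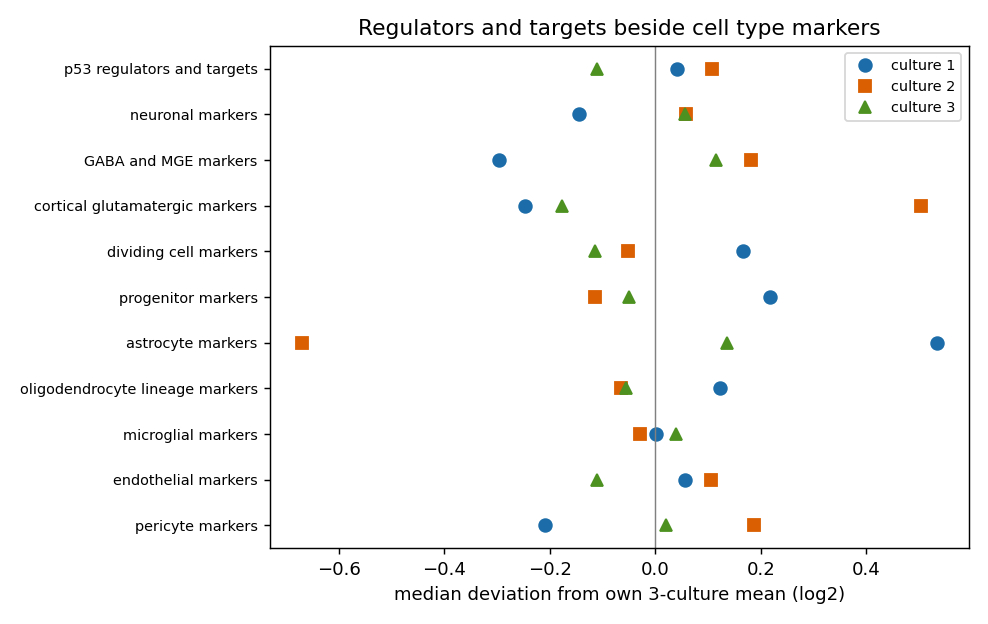
Median deviation from the own 3-culture mean in log2 units (x axis) of the 9 p53 regulators and targets and of 10 lists of cell type markers, 1 point per culture. The regulators and targets spread from -0.11 in culture 3 to 0.11 in culture 2, against -0.67 in culture 2 to 0.53 in culture 1 for the astrocyte markers.

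The rest of the p53 pathway was measured with 82 of 90 further genes in 9 lists, and 77 of the 82 (93.9%) were above background, beside 63.4% of all genes. With the margin of 1, 66 (80.5%) were, beside 47.6%. No test of the lists was made. The other members of the p53 family, Trp63 and Trp73, were not above background. Trp63 had a log2 signal of 6.13, 6.16 and 6.24 in cultures 1, 2 and 3 (6.18 ± 0.05, SD, n = 3) and Trp73 had 6.23, 6.19 and 6.39 (6.27 ± 0.11, SD, n = 3). Both lay at the background line and neither passed (limma, adjusted p = 1 and 0.673), although both did at the 90th percentile line.

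Upstream of p53, 15 of 15 measured activators and cofactors and 11 of 11 inhibitors were above background, 11 and 10 of them with the margin of 1. With the line at the 99th percentile the DNA damage kinases Atm, Atr, Chek1 and Prkdc lost the margin call. The DNA damage kinase Atm averaged 8.20 ± 0.14 and its downstream kinase Chek2 7.35 ± 0.20, while Trp53bp1, a chromatin protein at DNA breaks, averaged 10.11 ± 0.16 (log2, SD, n = 3). Cdkn2a, whose Arf product blocks Mdm2, averaged 7.46 ± 0.13, and Ppp1r13b, a cofactor that directs p53 to death genes, averaged 9.72 ± 0.22. Neither Chek2 nor Cdkn2a passed with the margin of 1, though Cdkn2a did without culture 1 (limma, adjusted p = 0.0328). Atr was above background by 1 of its 2 probe sets. Rpl5 and Rpl11, ribosomal proteins that bind Mdm2, were above background without the margin only. Such genes have many near-identical copies, and their part in these signals was not tested. Among the inhibitors, Ppm1d, a phosphatase that reverses Atm signalling and is a p53 target in turn, averaged 9.97 ± 0.06, and Usp7, which removes ubiquitin from both Mdm2 and p53, averaged 10.16 ± 0.03. Trim24 (10.18 ± 0.11), a ubiquitin ligase for p53, and Daxx (8.35 ± 0.11), a partner of Mdm2, varied most in that list.

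Targets listed under cell cycle arrest, not all of which halt the cycle themselves, were above background in 9 of 9 measured cases, 8 with the margin of 1. With the line at the 99th percentile Sfn and Gtse1 lost the margin call. Cdkn1a, the cyclin-dependent kinase inhibitor p21 and the best-known p53 target, had a log2 signal of 11.73, 11.90 and 11.63 in cultures 1, 2 and 3 (11.75 ± 0.13, SD, n = 3). Ccng1, a cyclin that acts with Mdm2, had 12.44, 12.36 and 12.20 (12.33 ± 0.12, SD, n = 3), so both were lowest in culture 3. Btg2, an antiproliferative gene, averaged 9.57 ± 0.19 and was highest in culture 1. The stress kinases Plk2 (9.00, 9.70 and 9.50) and Plk3 (8.48, 9.26 and 8.96), which neuronal activity also induces, varied most, and both were lowest in culture 1 and highest in culture 2. Gtse1, which is active in dividing cells and counters p53, passed with the margin of 1 but not without culture 2 (limma, adjusted p = 0.154) or without culture 3 (0.0987).

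Targets of the death pathway were above background in 11 of 12 measured cases, 8 with the margin of 1. The exception was Fas, a death receptor, at 6.15, 6.13 and 5.94 in cultures 1, 2 and 3 (6.07 ± 0.12, SD, n = 3; limma, adjusted p = 1, and 0.0136 at the 90th percentile line). Of the BH3-only genes, which start apoptosis, Bbc3 (Puma) and Pmaip1 (Noxa) were above background but not with the margin of 1, with a mean log2 signal of 6.89 ± 0.10 and 7.22 ± 0.29, and neither passed at the 99th percentile line. Bid, a further BH3-only gene, passed with the margin (7.71 ± 0.13, SD, n = 3), though not with the margin above the 99th percentile line. The same held for Perp, Pidd1 and Siva1. Pmaip1 stood highest in culture 2, at 7.54, against 6.97 and 7.15 in cultures 1 and 3. Apaf1, the apoptosome scaffold, averaged 8.79 ± 0.14 and Tnfrsf10b, a receptor for the death ligand Trail, 8.95 ± 0.23 (log2, SD, n = 3).

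Repair and metabolic targets were above background in 5 of 5 and 6 of 6 measured cases, all of them with the margin of 1. With the line at the 99th percentile, all 5 repair targets lost the margin call, as did the metabolic targets Tigar and Aldh4a1. Xpc, which recognizes DNA lesions, averaged 7.79 ± 0.02, and Rrm2b, the ribonucleotide reductase subunit p53 induces to supply nucleotides for repair, averaged 8.21 ± 0.18 (log2, SD, n = 3). Polk (7.95 ± 0.25) and Polh (7.77 ± 0.20), polymerases that copy past damaged bases, were highest in culture 2, as was Rrm2b. Tigar, a phosphatase that slows glycolysis, averaged 8.17 ± 0.26 and was highest in culture 2 too, as were 52.1% of all genes above background. Ddit4, an inhibitor of mTORC1 like the sestrins, averaged 9.12 ± 0.09, and Ephx1, a detoxifying epoxide hydrolase, averaged 10.17 ± 0.26 with its lowest value in culture 3. A further list of 9 other targets was above background in full, with and without the margin. In that list Rps27l, Tap1, Trp53cor1, Dcxr and Slc19a2 lost the margin call with the line at the 99th percentile. Its most variable genes, Trp53cor1 (8.54, 8.05 and 7.96), the noncoding RNA beside Cdkn1a, and the lipase-like Abhd4 (11.46, 10.93 and 11.06), were highest in culture 1. Over the 40 of these targets above background, 80.0% were below their own mean in culture 3, beside 59.1% of all genes above background, and 67.5% beside 51.7% after quantile normalization.

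**Figure D4:**
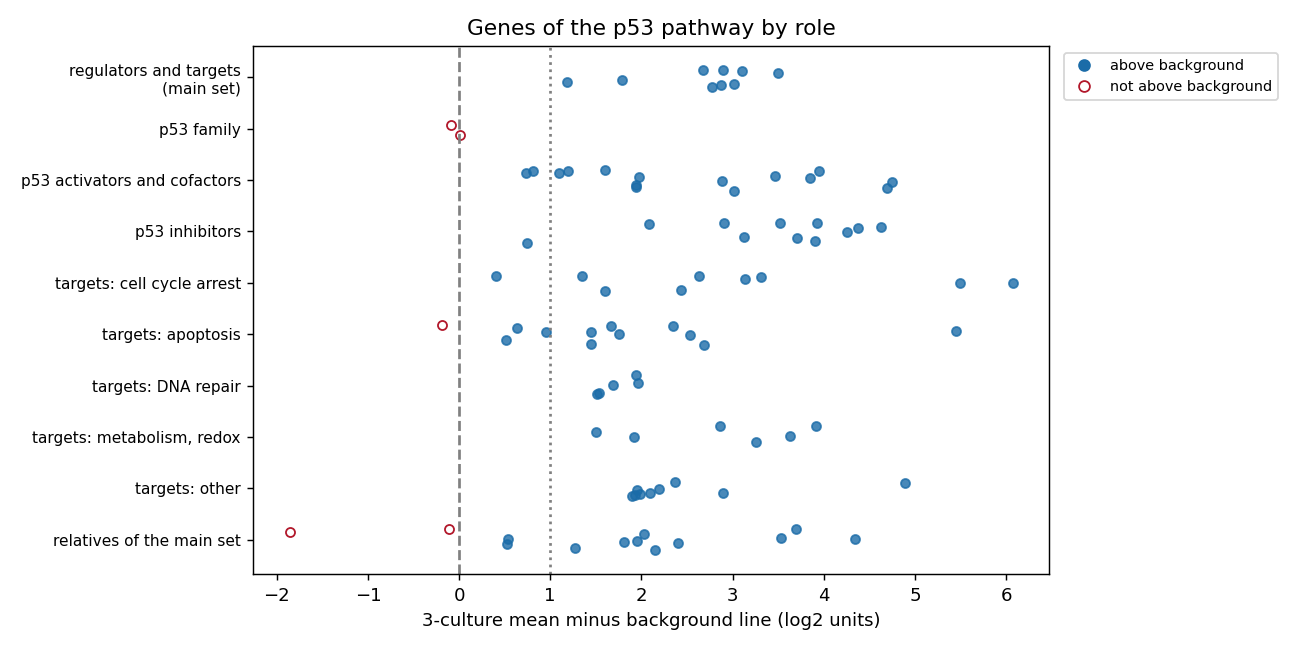
Distance of each gene's 3-culture mean from the background line in log2 units (x axis), 1 point per gene, for the 9 regulators and targets and 9 further lists of the p53 pathway; filled points passed the test, open points did not, and the dashed and dotted lines mark 0 and the margin of 1. The open points are Trp63, Trp73, Fas, Edar and Phlda2.

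The closest relatives and partners of the 9 genes were above background in 11 of 13 cases, 9 with the margin of 1. With the line at the 99th percentile Eda, Phlda1, Zmat1, Zmat4 and Zmat5 lost the margin call. Sesn3, the third sestrin, averaged 10.60 ± 0.24 (log2, SD, n = 3) and was lowest in culture 2 (10.87, 10.40 and 10.54 in cultures 1, 2 and 3), where Sesn1 and Sesn2 were highest. Trp53inp2, an autophagy protein, averaged 9.96 ± 0.26 and was highest in culture 2 (9.71, 10.23 and 9.94), where its relative Trp53inp1 was below its own mean. Eda, the gene of the ectodysplasin ligands, was above background at 7.47, 7.65 and 7.47, alongside its receptor Eda2r. Edar, the receptor for the other form of that ligand, was not, at 6.35, 5.83 and 6.26 (6.15 ± 0.28, SD, n = 3; limma, adjusted p = 1, and 0.0374 at the 90th percentile line). Eda passed with the margin of 1 with all 3 cultures but not without culture 2 (limma, adjusted p = 0.0758) or without culture 3 (0.0587), and the same held for Zmat4 (0.0550 and 0.0654). Phlda1, a relative of Phlda3, averaged 8.22 ± 0.38 and was highest in culture 2, while Phlda2, an imprinted gene best known in placenta, was below the line at 4.40 ± 0.29 and did not pass. Zmat4, a relative of Zmat3, averaged 8.41 ± 0.56 and spread most of all the pathway genes, from 7.85 in culture 1 to 8.98 in culture 2.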

How the data were processed

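Gene expression was measured on 1-colour arrays in 3 MGE cultures (1 group, 1 array each, 100 ng of RNA per labelling). The deposited values are log2 signals per probe set, made by the authors with oligo and RMA per the submitters' processing notes. Not given in the sources used here are versions, settings and filters. The array medians were 6.57, 6.52 and 6.56. Arrays give no read depth, and their number limits the precision. The labels name the cultures biological replicates.

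Of 41345 probe sets, 23521 carry 1 gene symbol, 1814 several and 16010 none, and those with 1 were used. All 9 measured members matched a RefSeq (GRCm38.p6) gene symbol. The members and lists were chosen with earlier results of these data known. A gene with several probe sets was called if 1 or more of them passed, and the one with the highest mean supplies the printed value. Calls were made with limma 3.58.1 in R 4.3.3 (adjusted p under 0.05). In data simulated for this call over 22081 probe sets, 26, 46, 50 and 50 of 50 probe sets raised 0.25, 0.5, 1 and 2 log2 units above the line were called, and 9 of 7179 below it were. Those below kept their own measured means, so their count does not measure how often a probe set at the line is called.

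Genes named were all members and, in each further list, fixed lead genes, genes not above background, genes whose call changed without 1 culture, and the 2 with the largest SD. Other genes, and patterns across cultures, were picked after their values were seen. Of the further genes, 8 had no probe set of their own and were not analysed here, among them the lead genes Gadd45a, Bax, Fdxr and Gdf15. The 12 alternatives were the 99th and 90th percentile, other background families (150 probe sets of keratin-associated, defensin, trace amine receptor and cornified envelope genes, line at 7.25), every culture above the line with no test, an intensity trend, quantile normalization, median centring, a filter on dim probe sets, the mean of a gene's probe sets and each culture left out.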

Additional observations from a re-analysis of the deposited data

How the results depend on the processing

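Under the 11 alternatives that give a p, 98 of 99 adjusted p values of the 9 genes stayed under 0.05. The exception was Aen with the other background families, at 0.0923 (8 of 9 genes above background, beside 47.8% of all genes tested). With 1 culture left out, the count was 9 to 9 of 9 without the margin and 8 to 8 with it, and the adjusted p ranged from 0.000281 to 0.00635 over the 9 genes. With the margin of 1, Eda2r was lost with the other families and at the 99th percentile, and Aen passed at the 90th percentile (adjusted p = 0.00214). Of the further pathway genes 67 passed with the other families and 67 at the 99th percentile, against 77, with Chek2, Rpl5, Rpl11, Bbc3 and Pmaip1 among those lost. Of all genes tested 47.8% passed with the other families and 49.9% at the 99th percentile, against 63.4%. With the margin of 1, 38 of the 82 passed with the other families and 39 at the 99th percentile, against 66. The shares of all genes tested that passed with the margin were 32.2%, 34.8% and 47.6%, respectively. The repair targets Xpc, Rrm2b, Polk, Polh and Ercc5 lost the margin call under both alternatives. Atm, Atr, Chek1 and Prkdc did so too, and Daxx lost it with the other families. Leaving out 1 culture left 77 to 77 of the 82 above background, 12635 to 12965 of all genes (9313 to 9775 with the margin) and a median SD of the members of 0.13 to 0.21. No member's mean moved by more than 0.12 log2 units under quantile normalization or with a culture left out. With a culture left out the move is set by that culture's deviation, so it is no separate check. Median centring and the mean of a gene's probe sets could not move a member's mean. Centring keeps the 3-culture mean, and each member has 1 probe set. The counts below the own mean in culture 3, under both normalizations, were added after the data were seen. No paired analysis was possible because the cultures form 1 group. The sources give no scan dates or slides for a batch test.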
